A study of Mus musculus with 11 samples.

Results

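The genes described here encode the RNA polymerase II (RNAPII) machinery and Mediator. They are the protein-coding genes of mouse assembly GRCm38 whose symbols begin with Polr2 or Gtf2, or with Med or Taf followed by a digit, together with Tbp, Supt4a, Supt5, Supt6, Supt16, Cdk7, Cdk9, Ccnt1, Nelfa, Nelfb, Nelfcd and Nelfe. The rule is by symbol alone, although the set was picked with earlier results of these data known. Of the 54838 genes counted, 94 met it, and 92 of these exceeded 1 CPM (reads of a gene scaled to the total counted in its library) in at least 4 libraries and were tested among 16073 genes. The 94 comprised 13 RNAPII subunits, 17 genes of TFIID, 6 of TFIIH, 8 of TFIIA, TFIIB, TFIIE and TFIIF, 30 Mediator subunits and 10 elongation factors. The remaining 10 (Taf1a, Taf1b, Taf1c, Taf1d, Taf5l, Taf6l, Taf15, Gtf2i, Gtf2ird1 and Gtf2ird2) share a symbol prefix with the general factors but belong to other complexes or have other roles.

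RNA was sequenced from E14 cells, a mouse embryonic stem cell (ESC) line grown with LIF, 36 h after siRNA transfection. The groups were control scramble siRNA (3 libraries), CMTR1 siRNA 1 (4 libraries) and CMTR1 siRNA 2 (4 libraries). The comparisons ask whether repression of CMTR1, the cap methyltransferase, alters transcript levels of the transcription machinery. All libraries come from the same cell line and carry no other treatment, and both CMTR1 siRNAs are compared with the same 3 control libraries. Nothing in the labels says that the libraries of a group came from separate cultures, so the p-values measure the spread between these libraries, which may be technical. The study's methods speak of biological replicates for sequencing, but the number they give is not that of the CMTR1 siRNA libraries.

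RNAPII transcribes all protein-coding genes. At a promoter, TFIID binds the DNA through TBP and its associated factors (TAFs), TFIIA and TFIIB stabilise it, TFIIF escorts the polymerase, and TFIIE and TFIIH open the DNA and phosphorylate the C-terminal domain of the largest subunit. Mediator links sequence-specific activators to this complex, and CMTR1 is recruited to the phosphorylated C-terminal domain, where it methylates the ribose of the first transcribed nucleotide. NELF and Spt5 then pause the polymerase near the start of the gene, and P-TEFb, the kinase Cdk9 with cyclin T1, releases it.

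Between 6738478 and 8382318 reads were counted per library. Cmtr1, the targeted transcript, measured 21.3, 21.7 and 17.9 CPM in the controls, 21.1, 21.3, 16.2 and 18 CPM with siRNA 1 and 15.6, 16.8, 16.4 and 19.5 CPM with siRNA 2. Neither difference passed the test (log2 fold change -0.088 ± 0.11 (SE), adjusted p = 0.743, and -0.25 ± 0.11, adjusted p = 0.144), the groups overlapped, and 63.7% of the exon length of Cmtr1 lies outside other genes on its strand. The RNA level of the target therefore does not check the labels. All 8 ESC markers (Pou5f1, Nanog, Sox2, Zfp42, Esrrb, Dppa5a, Fgf4, Utf1) lay between 47.3 and 507 CPM in every library. Their sum was 1717 to 1858 CPM in the control libraries, 1484 to 1628 CPM with siRNA 1 and 1542 to 1614 CPM with siRNA 2. The ESC sum was therefore lower with both CMTR1 siRNAs, but not every marker was. Nanog, Zfp42 and Fgf4 had every library of both CMTR1 siRNAs below every control library, whereas Utf1 overlapped the controls with both. Pou5f1 and Dppa5a overlapped the controls with siRNA 2 only, and Sox2 and Esrrb with siRNA 1 only. The part of the ESC markers in the results was not tested. Summed markers of endoderm (11.4 to 20.4 CPM over all libraries) and mesoderm (5.82 to 8.46 CPM) overlapped between groups. The neural sum (Sox1, Pax6, Neurog2) was 40.2 to 43.9 CPM in the controls, 46.1 to 57.4 CPM with siRNA 1 and 34.7 to 47.02 CPM with siRNA 2. Every siRNA 1 library was thus above the controls, and the siRNA 2 libraries overlapped them. Pax6 was 9.40 to 12.3 CPM in the controls, higher with siRNA 1 (12.4 to 16.3 CPM) and lower with siRNA 2 (7.41 to 9.23 CPM). Sox1 overlapped the controls with both. The part of the neural markers in the results was not tested. The 5 fibroblast markers (Col1a1, Col1a2, Thy1, Lum, Dcn) summed to 21.95 to 26.2 CPM in the control libraries, 23.7 to 28.05 CPM with siRNA 1 and 33.4 to 38.6 CPM with siRNA 2, with Lum at 0 in 8 of 11 libraries. The fibroblast sum was therefore higher with siRNA 2, but not every marker was. Only Col1a1 and Dcn had every siRNA 2 library above every control library, whereas Col1a2 and Thy1 overlapped the controls. The part of the fibroblast markers in the siRNA 2 results below was not tested. In bulk RNA, fewer cells of a type and less RNA per cell cannot be told apart.

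In the control ESCs the machinery was expressed well above the typical gene. Levels are given here as CPM per kilobase of exon, the mean of 3 libraries with SD, to allow for gene length. The length is that of all annotated exons of a gene merged, which can exceed that of its transcript. Levels, class medians and ratios of paralogues therefore depend on the annotation too. The median of the 92 members was 14.5, against 5.67 over all 13222 protein-coding genes tested. RNAPII subunits had the highest class median at 41.1, followed by the elongation factors at 24.6 and the Mediator kinase module at 18.5. The Mediator head (15.7), TFIIA, TFIIB, TFIIE and TFIIF together (14.7), the Mediator tail (13.8), TFIIH (12), the Mediator middle and scaffold (11.1) and TFIID (10.6) were lower. Polr2a, the largest and catalytic subunit, was the most abundant member at 104 ± 2.96, and Polr2m, a polymerase-associated protein that competes with TFIIF, followed at 91.6 ± 3.86. Tbp, which bends the DNA at the promoter, reached 5.09 ± 0.291, from 69.1 CPM over 13576 bases of merged exon. Polr2k, a small subunit shared by all nuclear polymerases, was the lowest RNAPII subunit at 9.33 ± 1.79. Of the 75-base stretches in its transcripts, 17.3% also occur in other genes, the highest share among tested members. Polr2l (15.8%), Taf5l (14%) and Supt4a (11.6%) followed. Reads from such stretches may not have been counted, so these levels may read low.

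**Figure D1:**
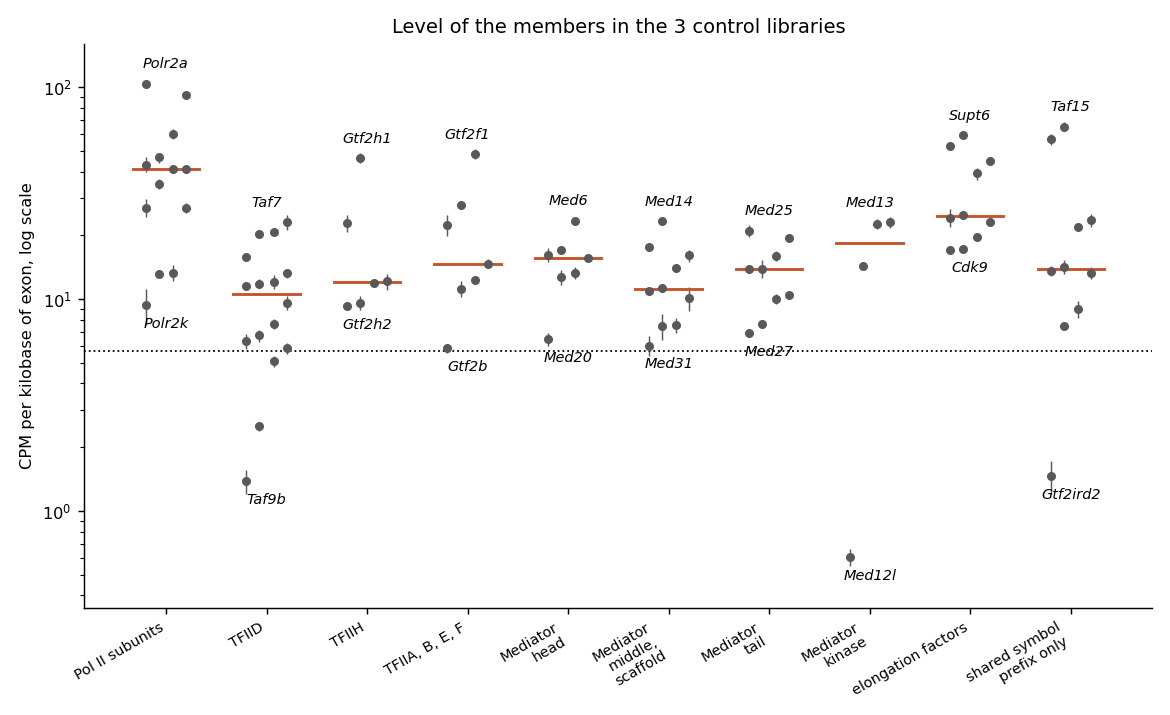
Control level of the 92 tested members by class, in CPM per kilobase of exon on a log scale. Points are means of 3 control libraries with SD, orange lines are class medians, the dotted line is the median of all protein-coding genes tested (5.67), and the highest and lowest member of each class are named. Polr2a sits at the top with 104 and Med12l at the bottom with 0.605.

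Several members have a tissue-restricted or redundant paralogue, and most of the pairs examined were unequal in ESCs. Taf7l, a TAF known for its roles in germ cells and fat cells, was at 2.51 ± 0.134 CPM per kilobase in the controls against 23.1 ± 1.85 for its paralogue Taf7. Med12l was at 0.605 ± 0.0553 against 14.3 ± 0.337 for Med12, the subunit that activates the Mediator kinase. Med13 and Med13l, which tether the kinase module to core Mediator, were nearly level at 23.1 ± 1.38 and 22.6 ± 1.12, within their spread. Taf4b, a pair with Taf4 that was added after the values were seen, was at 58.1% ± 3.67 of Taf4. Taf9b was at 1.38 ± 0.179. Its paralogue Taf9 was one of the 2 members below the filter, with 1 to 8 reads per library (0.123 to 1.02 CPM), and only 26.2% of its exon length is free of the overlapping gene Ak6 on the same strand, so this value says little of the transcript. Gtf2a1l, a germ cell relative of the TFIIA subunit gene Gtf2a1, was the other, with 1 to 6 reads per library.

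With CMTR1 siRNA 1, no member passed the threshold of a false discovery rate of 0.05. The edgeR quasi-likelihood test called 0 of 92 members, beside 4.67% of all genes tested, while 6 members had an unadjusted p under 0.05, DESeq2 called 0 and the edgeR exactTest called 1 (Taf9b). The median log2 fold change of the members was 0.022, against 0.024 over all genes tested, and 34 of 92 members lay below 0 (46 with TMM factors or DESeq2). That is 37.0%, against 43.2% of all genes tested by the same test. Estimates ran from -0.27 for Taf13 to 0.58 for Taf9b. The 95% interval lay within a 1.5-fold change in either direction for 91 of the 92 and within 1.25-fold for 85. Over all genes tested the shares were 70.1% and 45.5%. The median standard error was 0.068 for the members and 0.109 over all genes tested. All siRNA 1 libraries lay outside the range of the control libraries for 9 members, or 9.78%, against 15.5% of all genes tested.

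With CMTR1 siRNA 2, 5 of 92 members (5.43%) passed, beside 9.72% of all genes tested. Taf7l, Taf9b, Polr2b and Gtf2a1 were higher, where 6.17% of all genes tested were called higher, and Taf1d was lower, where 3.55% were called lower. The median log2 fold change of the members was 0.041, against 0.029 over all genes, and 29 of 92 lay below 0 (39 with TMM factors and 41 with DESeq2). That is 31.5%, against 42.9% of all genes tested by the same test. Without the large estimates of Taf7l (1.42) and Taf9b (0.96), the members spanned -0.23 to 0.19. The interval lay within 1.5-fold for 90 of the 92 and within 1.25-fold for 81. Over all genes tested the shares were 68.9% and 43.1%, with a median standard error of 0.108 against 0.067 for the members. The libraries did not overlap for 16 members, or 17.4%, against 19.4% of all genes. The number called was 3 without control replicate 1, without control replicate 3, and without siRNA 2 replicate 1 or 2, and Taf7l and Taf9b were among those called in each of these.

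**Figure D2:**
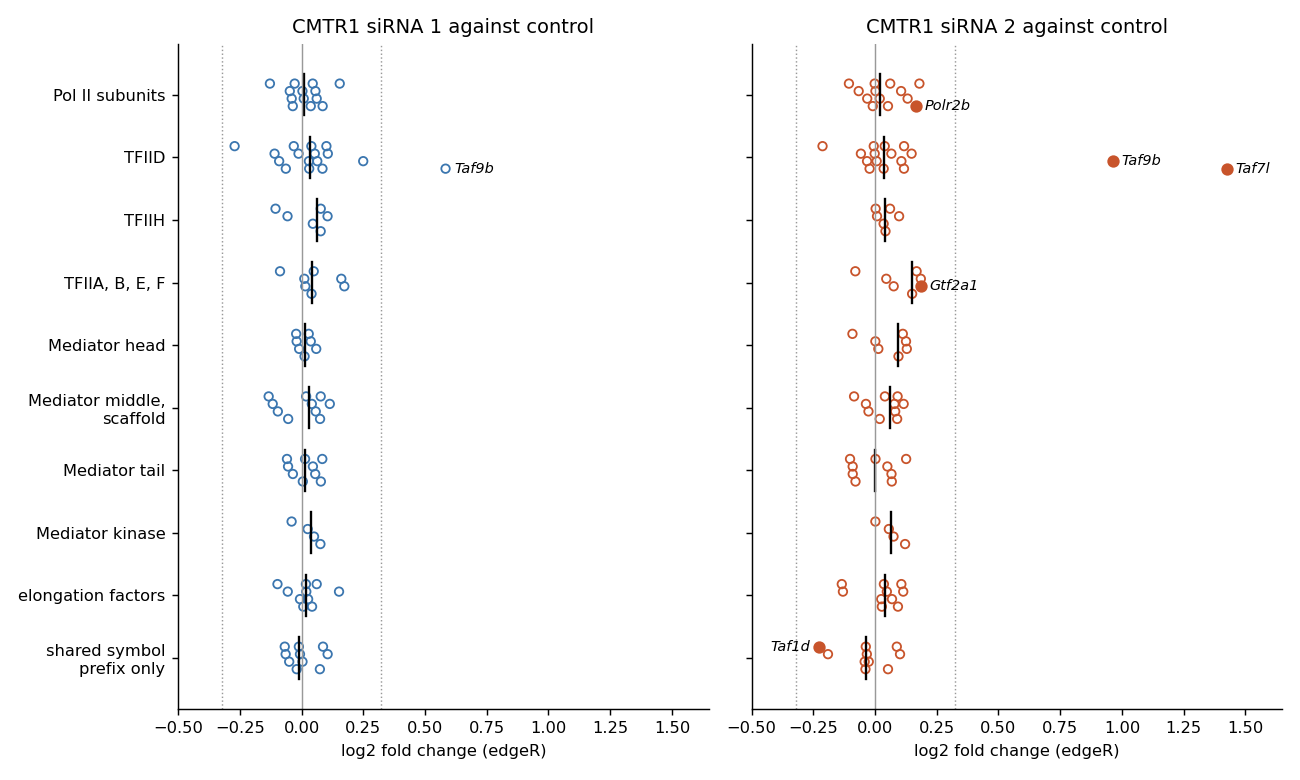
Log2 fold change of each tested member against control siRNA, by class, for CMTR1 siRNA 1 (left) and CMTR1 siRNA 2 (right). Filled points passed a false discovery rate of 0.05, black bars are class medians and dotted lines mark a 1.25-fold change. Taf7l (1.42) and Taf9b (0.96) stand apart from the other members with siRNA 2, and no member is filled with siRNA 1.

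The largest difference in the machinery was in Taf7l, which lies on X:134460118-134476490 (minus strand, GRCm38). Its level was 5.97, 5.55 and 5.38 CPM in the control libraries, 5.64, 6.11, 6.87 and 8.15 CPM with siRNA 1 and 15.6, 15.6, 13.9 and 15.4 CPM with siRNA 2, from 38 to 131 reads per library. All 4 siRNA 2 libraries were above the other 7, whereas the siRNA 1 libraries overlapped the controls. Taf7l rose with siRNA 2 from 5.63 ± 0.301 (SD, n = 3) to 15.1 ± 0.843 CPM (n = 4), a log2 fold change of 1.42 ± 0.14 (SE, adjusted p = 1.15e-09). With siRNA 1 the estimate was 0.25 ± 0.16 (adjusted p = 0.468), with an interval from -0.08 to 0.58. The test of siRNA 2 against siRNA 1 gave 1.17 ± 0.12 (adjusted p = 7.07e-09). In ratio to its paralogue Taf7 per kilobase, Taf7l was 10.9% ± 0.484 in the control libraries, 11.9% ± 1.14 with siRNA 1 and 28.7% ± 2.55 with siRNA 2. Taf7 itself, whose protein inhibits the acetyltransferase activity of TAF1, was 76.3 ± 6.1, 82.2 ± 7.56 and 78.0 ± 8.89 CPM in the 3 groups (log2 fold changes 0.11 and 0.035, adjusted p = 0.492 and 0.826).

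Taf9b encodes a histone-fold TAF that pairs with TAF6 and is also found in the coactivator complex SAGA, and it lies on X:106206883-106221158 (minus strand). Counts were low, from 31 to 80 reads per library. Control libraries held Taf9b at 4.95, 3.82 and 4.31 CPM, siRNA 1 libraries at 5.79, 6.98, 7.0 and 6.28 CPM and siRNA 2 libraries at 11.4, 7.99, 7.41 and 7.53 CPM. Every CMTR1 siRNA library lay above every control library, and every siRNA 2 library above every siRNA 1 library. The rise with siRNA 2 was 0.96 ± 0.18 on the log2 scale (adjusted p = 0.000192), and 0.81 without siRNA 2 replicate 1, the highest library (adjusted p = 0.00254). The siRNA 1 estimate was 0.58 ± 0.19 (adjusted p = 0.059) and did not pass in 15 of 19 alternatives, with estimates down to 0.49 and adjusted p up to 0.268 (without control replicate 2). Those in which it passed included the edgeR exactTest (adjusted p = 0.0475), a fit of the control and siRNA 1 libraries alone (adjusted p = 0.0396) and the fit without siRNA 2 replicate 1 (adjusted p = 0.0402). Over the mean of both siRNAs, Taf9b was higher by 0.77 ± 0.16 (adjusted p = 0.00155). The difference between the siRNAs was 0.38 ± 0.15 (adjusted p = 0.116).

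Taf7l and Taf9b are both X-linked, a feature noticed after their values were seen. The other X-linked members are Taf1, the scaffold of TFIID, Med12 and Med14, the scaffold of Mediator, and their siRNA 2 estimates were -0.06, 0.07 and -0.03, none called. Over the 527 X-linked genes tested, the siRNA 2 median was 0.066 and 14.6% were called, against 0.029 and 9.72% over all genes tested.

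**Figure D3:**
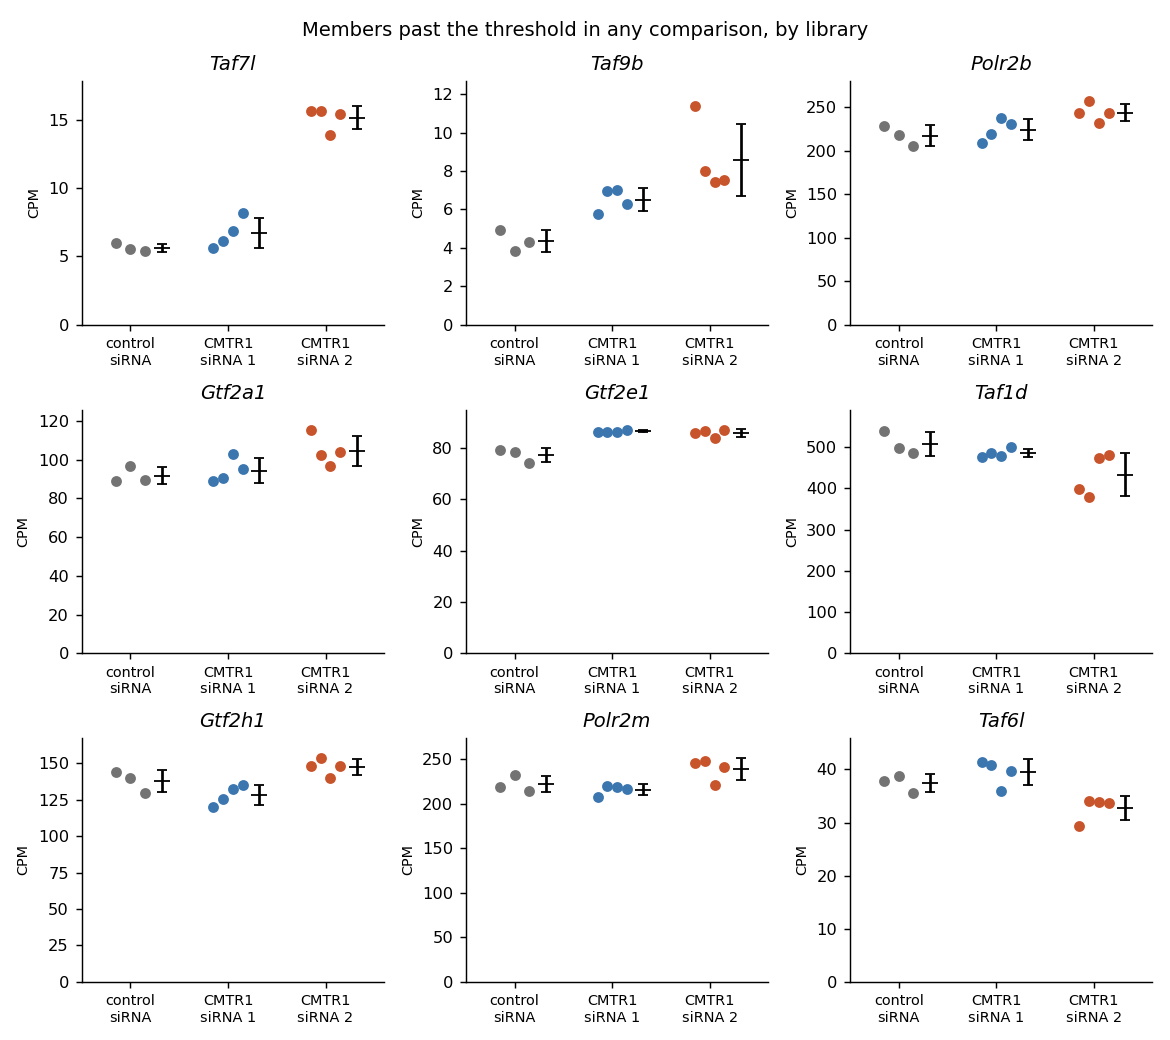
Level in CPM in each library for the 9 members past the threshold in any comparison, with points for libraries and a bar for the group mean with SD to the right of each group (3 control, 4 siRNA 1 and 4 siRNA 2 libraries). The siRNA 2 libraries of Taf7l (13.9 to 15.6) stand clear of the other 7 (5.38 to 8.15). Apart from Taf9b, the other members shift far less in proportion to their level.

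The promoters of Taf7l and Taf9b are shown because these members rose most, beside those of Polr2a and Polr2b, the largest subunits, and Gtf2a1, which was also higher with siRNA 2. Each run covers 80 bases before and 20 bases from the RefSeq start (GRCm38.p6), with the annotated first transcribed base, the nucleotide on which CMTR1 acts, in capitals. These starts are annotated and were not measured in these data. The runs are, in order, X:134476471-134476570 (minus), X:106221139-106221238 (minus, the upstream of 2 starts), 11:69758614-69758713 (minus), 5:77310404-77310503 (plus) and 12:91590468-91590567 (minus, the upstream of 2 starts).
Taf7l: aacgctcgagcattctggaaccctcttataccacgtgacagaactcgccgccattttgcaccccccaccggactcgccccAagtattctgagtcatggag
Taf9b: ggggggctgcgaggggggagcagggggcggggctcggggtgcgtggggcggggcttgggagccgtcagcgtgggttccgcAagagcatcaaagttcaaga
Polr2a: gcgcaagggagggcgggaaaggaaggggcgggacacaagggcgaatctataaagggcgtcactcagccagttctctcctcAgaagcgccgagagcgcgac
Polr2b: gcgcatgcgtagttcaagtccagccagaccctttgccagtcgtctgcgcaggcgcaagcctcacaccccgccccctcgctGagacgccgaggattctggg
Gtf2a1: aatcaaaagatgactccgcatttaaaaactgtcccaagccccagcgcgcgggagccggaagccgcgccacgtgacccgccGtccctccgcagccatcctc

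The annotated first base was A for Taf7l, Taf9b and Polr2a and G for Polr2b and Gtf2a1. Of the 94 members, 81 matched the RefSeq promoter table by symbol, with 96 promoters of 300 bases (250 before the start and 50 from it). On either strand, GGGCGG was present in 66.7% of member promoters against 35.7% of all 32851 promoters, CACGTG in 18.8% against 7.15%, CCAAT in 31.3% against 37.4% and TATAAA in 13.5% against 13.6%. None of these 4 motifs contains another. GGGCGG and CACGTG each contain a CpG dinucleotide, whereas CCAAT and TATAAA do not, so the motif shares are not separate from the CpG count. The median number of CpG dinucleotides was 22.5 against 7. Taf7l had 17. Over the 300 bases, the promoter of Taf7l and the upstream promoters of Taf9b and Gtf2a1 contained CACGTG. For Taf9b the motif lies outside the run shown above. The first base was A in 25% of member promoters and in 34.4% of all promoters. The 32851 promoters belong to 27025 genes, expressed in these cells or not, whereas nearly all members passed the expression filter. These percentages therefore do not compare the members with other expressed genes. These matches describe letters only and say nothing of factor binding.

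Among the RNAPII subunits, 1 of 13 passed with siRNA 2 and none with siRNA 1, beside 9.72% and 4.67% of all genes tested. Polr2a was 712, 752 and 742 CPM in the control libraries, 761, 757, 783 and 756 CPM with siRNA 1 and 746, 779, 718 and 700 CPM with siRNA 2. The siRNA 1 libraries lay just above the controls and the siRNA 2 libraries straddled them. The estimates for Polr2a were 0.056 ± 0.042 and 0.0017 ± 0.042 (adjusted p = 0.545 and 0.989), with intervals from -0.03 to 0.14 and from -0.08 to 0.09. Polr2b, the second largest subunit, which forms the catalytic cleft with the largest, was at 229, 218 and 205 CPM in the controls, 209, 220, 237 and 231 CPM with siRNA 1 and 244, 257, 232 and 243 CPM with siRNA 2. Its siRNA 2 libraries all exceeded the controls. Polr2b rose by 0.17 ± 0.05 on the log2 scale with siRNA 2 (adjusted p = 0.0258), against 0.05 ± 0.05 with siRNA 1 (adjusted p = 0.715). The call was lost without control replicate 2 (adjusted p = 0.0784) or 3 (0.2), without siRNA 2 replicate 1 (0.0535) or 2 (0.0891), with TMM factors (0.0686) and with DESeq2 (0.108).

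Polr2m did not pass against control with either siRNA (-0.04 ± 0.05 and 0.11 ± 0.05, adjusted p = 0.744 and 0.164). It differed between the siRNAs by 0.15 ± 0.04 (adjusted p = 0.0344). Levels were 245, 248, 220.6 and 242 CPM with siRNA 2 and 207, 220.3, 219 and 217 CPM with siRNA 1. The lowest siRNA 2 library thus lay only just above the highest siRNA 1 library, and the controls at 219, 233 and 215 CPM lay across both groups. That call was lost with DESeq2 (adjusted p = 0.0589) and without siRNA 1 replicate 1, 2 or 4 or siRNA 2 replicate 1, 2 or 4 (0.115, 0.0642, 0.0704, 0.109, 0.0991 and 0.0756). None of the other subunits passed. With siRNA 1, Polr2i was the lowest at -0.13 ± 0.08 and Polr2j the highest at 0.15 ± 0.07, and with siRNA 2, Polr2i was again lowest at -0.11 ± 0.08 and Polr2k highest at 0.18 ± 0.17. The Polr2k interval ran from -0.17 to 0.53. For Polr2j the unadjusted p with siRNA 1 was under 0.05 (adjusted p = 0.23), and its siRNA 2 libraries, at 49.1 to 51.6 CPM, all lay above the controls at 44.9 to 46.3 CPM (adjusted p = 0.244).

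**Figure D4:**
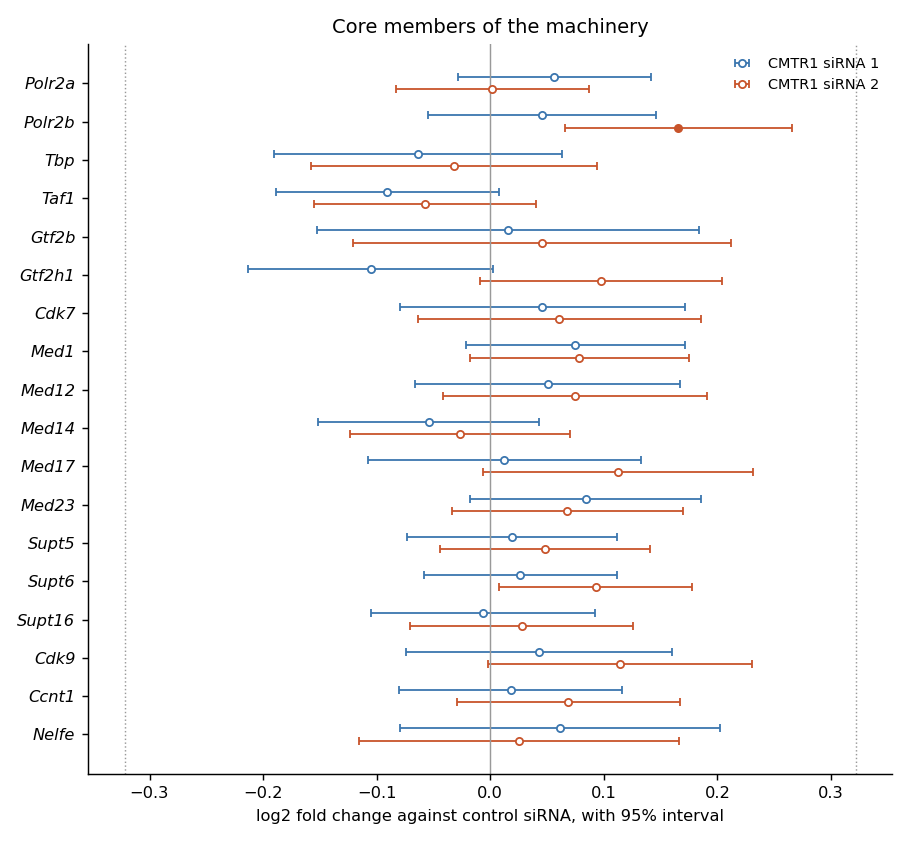
Log2 fold change against control siRNA with 95% interval for 18 core members, for CMTR1 siRNA 1 (blue) and siRNA 2 (orange). Filled points passed a false discovery rate of 0.05, and dotted lines mark a 1.25-fold change. Every interval shown lies inside the dotted lines, and only Polr2b with siRNA 2 is filled.

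In TFIID, 2 of 16 tested members were called with siRNA 2, Taf7l and Taf9b, and none with siRNA 1. The shares over all genes tested were 9.72% and 4.67%. Tbp was nearly level (-0.06 ± 0.06 and -0.03 ± 0.06, adjusted p = 0.677 and 0.814). Taf1 did not pass (-0.09 ± 0.05 and -0.06 ± 0.05, adjusted p = 0.345 and 0.513), though its siRNA 1 libraries lay below all controls, the highest at 174.07 CPM against a lowest control of 174.16 CPM. Taf13, a small histone-fold TAF that pairs with TAF11, had the lowest estimate with either siRNA, at -0.27 ± 0.12 and -0.21 ± 0.11 (adjusted p = 0.203 and 0.26). Its libraries were at 21.7, 19.9 and 18.3 CPM in the controls, 17.8, 13.1, 18.1 and 17.5 CPM with siRNA 1 and 20.2, 18.97, 16.2 and 13.8 CPM with siRNA 2. The siRNA 1 libraries lay below all controls and the siRNA 2 libraries overlapped them. The TFIID median was 0.035 with siRNA 1 and 0.037 with siRNA 2, with 6 of 16 below 0 in each.

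For TFIIA, TFIIB, TFIIE and TFIIF, 1 of 7 tested genes was called with siRNA 2 and none with siRNA 1. Over all genes tested, 9.72% and 4.67% were called. The class median was 0.040 with siRNA 1 and 0.15 with siRNA 2. Gtf2a1, which encodes the large precursor of TFIIA, was at 89.1, 96.7 and 89.5 CPM in the controls, 88.9, 90.7, 103 and 95.03 CPM with siRNA 1 and 115, 102, 96.5 and 104 CPM with siRNA 2. The lowest siRNA 2 library fell within the control range. The siRNA 2 difference of 0.19 ± 0.06 (adjusted p = 0.041) was lost with TMM factors (0.0913), with DESeq2 (0.168) and with the replicate number as a block. It was also lost without control replicate 1 (0.144) or 3 (0.164) or siRNA 2 replicate 1 (0.193), 2 (0.0501) or 4 (0.0595).

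Gtf2e1, the large TFIIE subunit, measured 79.4, 78.3 and 74.3 CPM in the controls, 86.1, 86.4, 86.4 and 87.1 CPM with siRNA 1 and 85.9, 86.7, 83.7 and 86.9 CPM with siRNA 2. All 8 CMTR1 siRNA libraries lay above the 3 controls. Gtf2e1 passed only over the mean of both siRNAs (0.16 ± 0.05, adjusted p = 0.0441), and the single siRNA estimates were 0.16 ± 0.06 (adjusted p = 0.0868) and 0.15 ± 0.06 (adjusted p = 0.0763). The call was lost with TMM factors (0.097), with DESeq2 (0.178), with the replicate number as a block and with no filter on low counts (0.101). It was also lost when any control library was left out (0.0701 to 0.25), any siRNA 1 library (0.0505 to 0.0705) or siRNA 2 replicate 1, 2 or 4 (0.0528 to 0.062). Over that mean, 3 of 92 members were called, all higher (Taf7l, Taf9b and Gtf2e1), beside 6.91% of all genes tested and 4.19% called higher. With TMM factors or DESeq2 the 3 were Taf7l, Taf9b and Taf1d. Gtf2f2, a TFIIF subunit, had estimates of 0.17 ± 0.07 and 0.19 ± 0.07 without passing (adjusted p = 0.164 and 0.0819). Gtf2b, which positions the polymerase at the start site, was nearly level (0.015 ± 0.083 and 0.046 ± 0.083, adjusted p = 0.955 and 0.797).

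None of the 6 TFIIH members passed against control with either siRNA, beside 4.67% (siRNA 1) and 9.72% (siRNA 2) of all genes tested. Cdk7, the kinase that phosphorylates the C-terminal domain, had estimates of 0.046 ± 0.062 and 0.061 ± 0.062 (adjusted p = 0.778 and 0.6). With siRNA 1 the class ran from -0.11 for Gtf2h1 to 0.11 for Gtf2h5, and with siRNA 2 from 0.0026 for Gtf2h4 to 0.098 for Gtf2h1, all 6 above 0. Gtf2h1, a core TFIIH subunit, was at 144, 140.1 and 130 CPM in the controls, 120, 125.3, 133 and 135 CPM with siRNA 1 and 149, 153, 139.7 and 149 CPM with siRNA 2. The controls overlapped both siRNA groups, which were separate from each other. The difference between the siRNAs was 0.20 ± 0.05 (adjusted p = 0.0065), and it passed in all 19 alternative fits in which it was computed.

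Mediator showed no called member with either siRNA, with 0 of 30 passing each test. Over all genes tested, 4.67% were called with siRNA 1 and 9.72% with siRNA 2. Unadjusted p-values under 0.05 were also absent in all 4 modules against control, DESeq2 called none, and the edgeR exactTest called none. Of all 16073 genes tested, 2698 (siRNA 1) and 3733 (siRNA 2) had an unadjusted p under 0.05 by the quasi-likelihood test. The head module, which contacts the polymerase, had medians of 0.012 and 0.095, with Med17 at 0.012 ± 0.06 and 0.11 ± 0.06. Its lowest estimate with each siRNA was that of Med11 (-0.02 and -0.09), and the highest were Med20 with siRNA 1 (0.06) and Med18 with siRNA 2 (0.13). The middle module and scaffold had medians of 0.030 and 0.059, between -0.13 (Med26) and 0.11 (Med4) with siRNA 1 and between -0.08 (Med9) and 0.12 (Med31) with siRNA 2. Med1, the target of many nuclear receptors, was at 0.075 ± 0.048 and 0.079 ± 0.048 (adjusted p = 0.455 and 0.33), and Med14 at -0.05 ± 0.05 and -0.03 ± 0.05 (adjusted p = 0.631 and 0.798). In the tail, which meets activators, medians were 0.014 and 0.0019, and Med23 was at 0.084 ± 0.051 and 0.068 ± 0.050 (adjusted p = 0.416 and 0.441). The tail ran from -0.06 (Med28) to 0.08 (Med23) with siRNA 1 and from -0.10 (Med27) to 0.13 (Med29) with siRNA 2. The kinase module had medians of 0.038 and 0.066, with Med12 at 0.051 ± 0.058 and 0.075 ± 0.058 and Med13l at 0.025 ± 0.045 and 0.0014 ± 0.045. Precision was lowest for Med12l, at 0.12 ± 0.16 with siRNA 2 and with an interval from -0.19 to 0.43 that reaches past a 1.25-fold change. Other Mediator intervals reached past it too. With siRNA 1, those within 1.25-fold were 7 of 7 in the head, 8 of 10 in the middle and scaffold, 9 of 9 in the tail and 3 of 4 in the kinase module. With siRNA 2 they were 6, 9, 9 and 3.

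The 10 elongation factors had no called member with either siRNA, and every one of their intervals lay within 1.25-fold. Over all genes tested, 4.67% (siRNA 1) and 9.72% (siRNA 2) were called, and 45.5% and 43.1% of intervals lay within 1.25-fold. Supt5, which clamps RNA and polymerase and binds NELF, was at 0.019 ± 0.046 and 0.048 ± 0.046 (adjusted p = 0.89 and 0.572). Supt6, a histone chaperone that travels with the polymerase, was 0.027 ± 0.042 and 0.093 ± 0.042 (adjusted p = 0.816 and 0.167), and Supt16, a subunit of the chaperone FACT, was -0.0063 ± 0.049 and 0.028 ± 0.049 (adjusted p = 0.968 and 0.791). For P-TEFb, Cdk9 was 0.043 ± 0.058 and 0.11 ± 0.06 (adjusted p = 0.779 and 0.222) and Ccnt1 0.018 ± 0.049 and 0.069 ± 0.049 (adjusted p = 0.904 and 0.414). Nelfcd was the highest with siRNA 1 at 0.15 ± 0.07 (adjusted p = 0.203), and Supt4a, the partner of Spt5, the lowest with both, at -0.10 ± 0.08 and -0.13 ± 0.08 (adjusted p = 0.566 and 0.289).

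Of the 10 genes that share only a symbol prefix, 1 was called with siRNA 2, beside 9.72% of all genes tested. Taf1d, a subunit of the RNA polymerase I factor SL1 and host of several small nucleolar RNAs, was at 539, 497 and 486 CPM in the controls, 477, 486, 479 and 499.6 CPM with siRNA 1 and 399, 379, 473 and 481 CPM with siRNA 2. All siRNA 2 libraries were below the controls, with replicates 1 and 2 well below and replicates 3 and 4 just under them. Taf1d fell by 0.23 on the log2 scale (SE 0.055, adjusted p = 0.00448), or by 0.18 without control replicate 1 (adjusted p = 0.061). Between the siRNAs it differed by -0.16 ± 0.05 (adjusted p = 0.0391), which was lost with DESeq2 (0.0685) and without siRNA 1 replicate 1, 2 or 4 (0.0509, 0.0918 and 0.111) or siRNA 2 replicate 1 or 2 (0.186 and 0.221). Of its exon length, 89.9% is free of other genes on the same strand.

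Taf6l, a SAGA subunit, did not pass against control (0.07 ± 0.08 and -0.19 ± 0.08, adjusted p = 0.686 and 0.114) but was lower with siRNA 2 than with siRNA 1, at -0.26 ± 0.07 (adjusted p = 0.0149). Its levels were 37.8, 38.9 and 35.5 CPM in the controls, 41.4, 40.8, 35.9 and 39.7 CPM with siRNA 1 and 29.3, 34.1, 33.8 and 33.7 CPM with siRNA 2, so the siRNA 2 libraries lay below all others. The difference was lost without siRNA 1 replicate 1 (adjusted p = 0.0574) or 2 (0.061) or siRNA 2 replicate 1 (0.0836). Taf15, which encodes an RNA-binding protein, was nearly level (-0.01 ± 0.05 and -0.04 ± 0.05, adjusted p = 0.946 and 0.701). The class as a whole had medians of -0.0085 and -0.035, with 6 and 7 of 10 below 0, and its highest estimates were 0.11 for Taf1a with siRNA 1 and 0.10 for Taf1b with siRNA 2, both genes of SL1.

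Tested directly against each other, the siRNAs differed in 5 of 92 members, beside 7.44% of all genes tested. Taf7l, Gtf2h1 and Polr2m were higher with siRNA 2, where 4.49% of all genes were, and Taf1d and Taf6l lower, where 2.96% were. The members' median difference was 0.016 against 0.0018 over all genes, with 40 of 92 (43.5%) below 0, against 49.5% of all genes tested. The groups did not overlap for 8 members, against 11.8% of all genes tested. The count was 2 without siRNA 1 replicate 1, siRNA 1 replicate 2 or siRNA 2 replicate 1, 3 without siRNA 1 replicate 4, and 9 without siRNA 2 replicate 3.

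Summed over the 92 tested members, the machinery took 8486 ± 77.1 CPM (SD, n = 3) of the counted reads in the control libraries, 8567 ± 100.2 with siRNA 1 and 8609 ± 108 with siRNA 2 (n = 4 each). The ranges were 8412 to 8566, 8421 to 8646 and 8483 to 8748 CPM, and they overlapped. By class, the mean sum differed from control by 0.232% (TFIIH) to 4.29% (TFIIA, TFIIB, TFIIE and TFIIF) among those higher with siRNA 1. With siRNA 2 the same TFIIA to TFIIF group was highest at 7.71%, from 418 ± 15.7 to 450.2 ± 11.9 CPM, with ranges of 403 to 434.3 and 433.6 to 459 that overlapped slightly. The genes sharing only a prefix were lowest at -7.31%, from 1261 ± 9.31 to 1168 ± 63.1 CPM, a class in which Taf1d is the most counted gene. These sums were not tested.

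**Figure D5:**
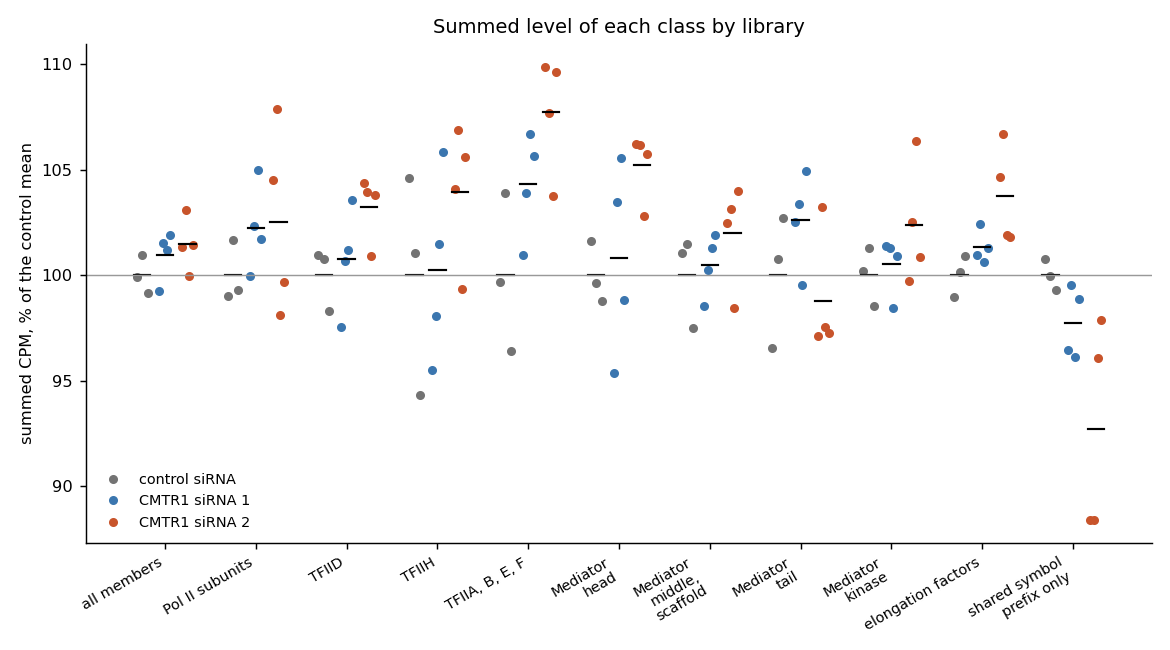
Summed CPM of each class in each library, as a percentage of the control mean, with black bars for group means (3 control, 4 siRNA 1 and 4 siRNA 2 libraries). The sum over all members stays within a few per cent of control in every library, while siRNA 2 replicates 1 and 2 are the low points of the class that shares only a prefix.

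The pathway holds further genes that the symbol rule leaves out, and 50 of them were listed, including the Mediator kinase Cdk8, the remaining TFIIH subunits, the PAF1 complex, elongins and regulators of TBP. Of these, 49 were tested and Ell3 was below the filter. None was called with siRNA 1 by the edgeR quasi-likelihood test or the exactTest, and DESeq2 called 1. Of all genes tested, the quasi-likelihood test called 4.67%. By that test 2 of the 49 had an unadjusted p under 0.05, as did 2698 of all 16073 genes tested. The siRNA 1 median of the list was 0.0011, against 0.024 over all genes tested. With siRNA 2, 3 were higher and 1 lower, or 8.16% against 9.72% of all genes tested, with a median of 0.0049 against 0.029. Btaf1, an ATPase that removes TBP from DNA, rose by 0.24 ± 0.05 (adjusted p = 0.000651), from a mean of 219.9 to 259 CPM. Cdk8 was higher by 0.17 (adjusted p = 0.0323) and Ctr9, the PAF1 complex scaffold, by 0.17 (adjusted p = 0.0312), while Eloa, the elongin A gene listed as Tceb3, fell by 0.21 (adjusted p = 0.035). The count with siRNA 2 was 1 without any of the control replicates or without siRNA 2 replicate 1. Between the siRNAs, Hexim1, the inhibitor of P-TEFb, and Btaf1 were higher with siRNA 2 (0.21 and 0.19, adjusted p = 0.0312 and 0.00397) and Drap1, part of the repressor NC2, was lower (-0.21, adjusted p = 0.0433), or 6.12% of the list against 7.44% of all genes tested. That count of 3 was 1 without siRNA 1 replicate 1 or 2 or without siRNA 2 replicate 1.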

How the data were processed

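RNA-seq libraries of 11 samples were analysed. Per the labels and the study's methods, ribosomal RNA was depleted, a strand-marking kit was used, and reads were trimmed (Cutadapt), aligned to GRCm38 (STAR), freed of PCR duplicates (Picard) and counted per gene (featureCounts). The deposited files hold raw counts per gene, not normalized. The form of the summary lines in 10 files is that of another counter, HTSeq, so which counter made the counts is uncertain. These lines were set aside, where reads in no gene or in several made up 43.0% to 48.1% of those lines and the counted reads together. Symbols, exon lengths and overlaps came from GENCODE M21. How the kit's strand was used in counting is not given in the sources used here.

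Counts were scaled to library totals and genes above 1 CPM in at least 4 libraries kept, as the study's methods describe. Groups were compared with the edgeR 4.0.16 quasi-likelihood test (R 4.3.3) over all 11 libraries and 16073 genes, with Benjamini-Hochberg adjustment over all genes tested and a threshold of 0.05. The study used the edgeR exactTest, which is an alternative here, as is DESeq2 1.42.0. Standard errors are the log2 fold change divided by the root of F, and intervals are 95%. Reads per library ranged from 6738478 to 8382318, so 1 read is 0.119 to 0.148 CPM. The script was tested on simulated data: with counts for 16073 genes drawn for siRNA 1 against control, it recovered 88 of 100 genes changed by 1 on the log2 scale and 62 of 100 changed by 0.5, and 13 of its 163 calls were unchanged genes.

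Alternatives were TMM factors, DESeq2, the exactTest, other filters, fits of only the groups compared, the replicate number as a block, library sizes without the most counted gene, narrower member lists and each library left out. The members, role classes and gene lists were chosen with earlier results of these data known. Named members were those called in any comparison, the highest and lowest of each class by estimate or control level, those below the filter and a list of 18 core members.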

Additional observations from a re-analysis of the deposited data

Results flagged for a closer look

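Among 28 groups of 4 libraries examined for a library that stood apart, 3 were found, where chance gives about 1 in 20. All 3 were in the CMTR1 siRNA 2 group. Replicate 1 was the lowest for Taf6l (29.3 CPM, the others 33.7 to 34.1) and the highest for Taf9b (11.4 CPM, the others 7.41 to 7.99), and replicate 3 was the lowest for Taf7l (13.9 CPM, the others 15.4 to 15.6).

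The effects of the siRNAs differed from each other, by the edgeR test of siRNA 2 against siRNA 1, for 5 members. The differences on the log2 scale were 1.17 for Taf7l (adjusted p = 7.07e-09), 0.20 for Gtf2h1 (adjusted p = 0.0065), 0.15 for Polr2m (adjusted p = 0.0344), -0.16 for Taf1d (adjusted p = 0.0391) and -0.26 for Taf6l (adjusted p = 0.0149).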

How the results depend on the processing

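Taf7l and Taf9b were called with siRNA 2 in all 19 alternatives and over the mean of both siRNAs in all 17, with ranges of 1.38 to 1.47 and 0.81 to 1.07 with siRNA 2, and Gtf2h1 differed between the siRNAs in all 19. No result changed direction among those called. Members called with siRNA 1 numbered 1 in place of 0 with only the groups compared, the replicate block or the exactTest, and 0 to 1 with a library left out. With siRNA 2 they numbered 3 in place of 5 with TMM factors or DESeq2, and 3 to 6 with a library left out. Over the mean of both they numbered 2 to 4 and between the siRNAs 2 to 9 with a library left out, and 3 between the siRNAs with DESeq2 or the narrower list. The members' median with siRNA 1 was 0.0019 with TMM factors and -0.0017 with DESeq2, and over the mean of both 0.0051 with DESeq2. With a library left out, the medians ran from 0.0137 to 0.0358 (siRNA 1), 0.0207 to 0.0526 (siRNA 2), 0.0109 to 0.0366 (mean of both) and -0.0002 to 0.0217 (between the siRNAs). Cmtr1 ran from -0.168 to -0.0155 and from -0.3274 to -0.1964 with siRNA 1 and siRNA 2. The other pathway genes called numbered 1 with siRNA 1 under TMM factors or DESeq2, 1 with siRNA 2 without a filter and 1 between the siRNAs with DESeq2, and 0 to 1, 1 to 5, 0 to 2 and 1 to 3 with a library left out. The causes were not tested.

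Same-numbered libraries showed no shared deviation (mean correlation of deviations 0.011 over 10 pairs, against -0.004 over 30 others). This cannot say whether libraries of the same number were handled together, which the labels do not give. With the replicate block, 4 members and 1486 genes were called with siRNA 2, against 5 and 1562, and 840 genes with siRNA 1, against 751. DESeq2 called 521 and 958 genes, 747 over the mean of both and 740 between the siRNAs, against 751, 1562, 1110 and 1196. The exactTest and the fit of only the groups compared give no value for the mean of both. Depth limits Taf9b, Polr2k, Taf7l and Med12l most, with standard errors of 0.14 to 0.19 against control.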
